A study of Mus musculus with 15 samples.

Results

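G1E cells carrying the R216Q form of GATA1 were compared with G1E cells carrying wild-type GATA1, using the 3 arrays of each line, which are 6 of the 15 arrays of the series. The arrays were assigned by their titles. G1E is a mouse erythroid cell line, arrested at an immature stage, that lacks its own functional GATA1. Each line expressed GATA1 fused to an estrogen receptor domain (GATA1-ER), and every culture, wild type included, had received 100 nM estradiol for 24 hours to switch the fusion protein on. The other lines of the series carried R216W, D218G or D218Y, again with 3 arrays each, and are used below to show where R216Q differs from them. Uninduced cells were not analysed here. The number of independent transductions or clones per construct was not stated in the labels. R216Q was therefore treated as 1 line: an effect of the mutation and a trait of that line cannot be told apart, and the p-values reflect variation among cultures alone. Expression is given as the deposited log2 RMA value, on which 1 unit is a 2-fold difference of array signal. A gene is called, and said to have risen or fallen, where the adjusted p of the moderated test (limma) is under 0.05 over all 19933 genes tested.

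GATA1 switches on the genes of the maturing red cell and platelet precursor and shuts down genes of the progenitor, among them Gata2 and Kit. It has a pair of zinc fingers: the carboxy-terminal finger does most of the binding to GATA motifs in DNA, and the amino-terminal finger steadies binding at some sites and holds the cofactor FOG1 (gene Zfpm1). Residue R216 lies in the amino-terminal finger on the side facing DNA, whereas D218 lies nearer the FOG1 surface. In people, inherited R216Q causes X-linked thrombocytopenia with features of thalassaemia.

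By the marker lists the cells read as erythroid in both lines, with part of the progenitor and platelet lists also above the median level. Of 20 measured genes that GATA1 is known to activate, 0 lay below the median level of all genes (6.48), and their mean level ran from 10.80 to 10.82 in the wild-type arrays and from 10.23 to 10.27 in the R216Q arrays. Below that median lay 21 of 22 lymphoid genes, 19 of 22 granulocyte and monocyte genes, 14 of 17 stromal and endothelial genes and 16 of 20 mast cell genes. So did 14 of 29 progenitor genes and 10 of 19 megakaryocyte and platelet genes. A gene was placed by its mean over all 15 arrays of the series. The mean over the progenitor list ran from 7.16 to 7.23 in wild type and from 7.32 to 7.36 in R216Q. Its median log2 difference, R216Q minus wild type, was -0.03, so the list as a whole did not rise. The mean over the lymphoid list ran from 5.21 to 5.33 in wild type and from 5.16 to 5.28 in R216Q, and the mean over the stromal list from 5.75 to 5.88 and from 5.77 to 5.87. On the first principal component of all 15 arrays, which held 58.8% of the variance, the R216Q arrays lay at 0.59, 2.05 and -1.36, between the wild-type arrays (-22.49 to -18.85) and the D218Y arrays (34.53 to 37.11). The median standard deviation of a gene between the cultures of a line was 0.05 in R216Q and 0.06 in wild type. Replicate 3 of D218G stood apart from its line, and it enters the comparison of R216Q with wild type only through the shared estimate of the spread.

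The Gata1 transcript was slightly lower in R216Q. Its level was 12.16, 12.15 and 12.14 in R216Q and 12.35, 12.36 and 12.36 in wild type, so that the arrays did not overlap. The difference was -0.21 ± 0.03 (log2, SE, adjusted p = 0.000108), or 13.4% lower. Permuting the 6 arrays exactly (two-sided) gave p = 0.1, and no lower p is possible with 3 arrays a line. The part of the Gata1 transcript that the probe set reads was not compared with the disrupted allele of G1E cells, so fusion and remaining transcript cannot be told apart, and the part of this difference in the results below was not tested.

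Against wild type, 4283 of 19933 genes were called in R216Q (21.5%), 2359 of them higher (11.8%) and 1924 lower (9.65%). Most of the called differences were small. The median size of a called difference was 0.27 on the log2 scale, 1921 called genes differed by less than 0.25, and the smallest called difference was 0.09. At least 2-fold were 55 rises (0.276% of genes) and 45 falls (0.226%), and at least 4-fold 3 rises and 2 falls. The median over all genes was -0.01. In 4244 of the called genes all 3 R216Q arrays lay on 1 side of all 3 wild-type arrays, which was the case for 31.7% of all genes tested. At least 4068 of the called genes lay above the median level of all genes. For a list of mostly bright or mostly dim genes, the 21.5% is therefore not a share matched for level.

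**Figure D1:**
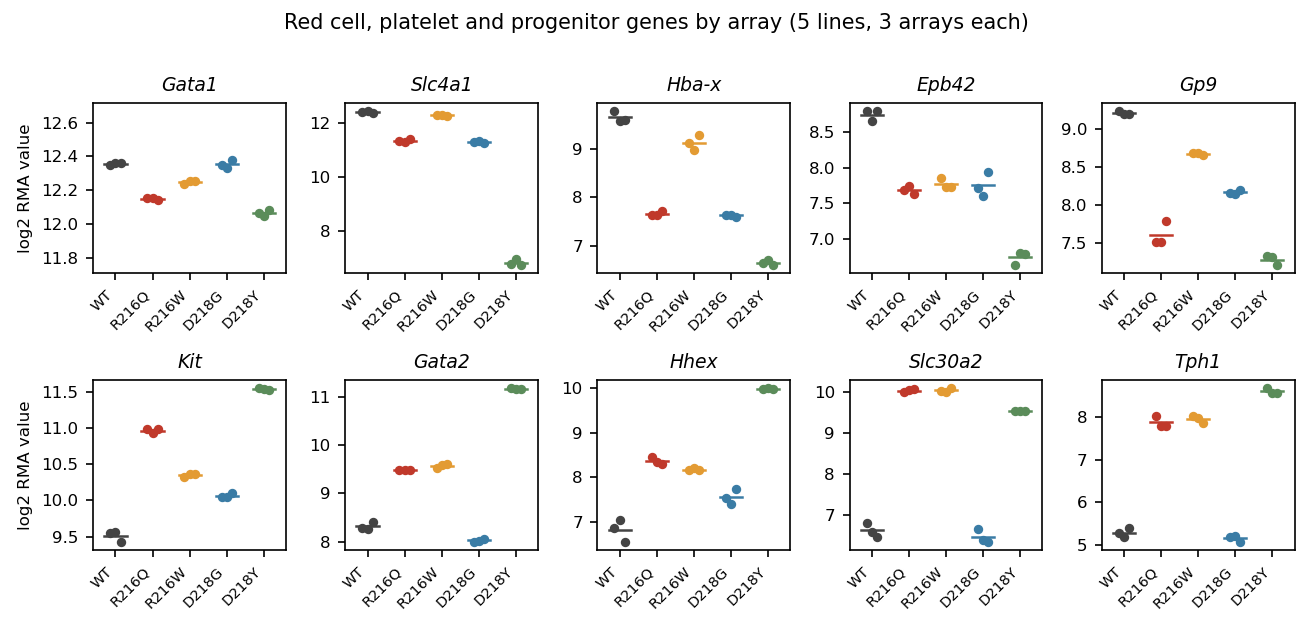
Log2 RMA value of 10 genes in each of the 15 arrays, by line (wild type, R216Q, R216W, D218G, D218Y). Points are arrays, bars are line means (n = 3), and each panel has its own vertical axis. The R216Q arrays lie below wild type for Slc4a1, Hba-x, Epb42 and Gp9, above it for Kit, Gata2, Hhex, Slc30a2 and Tph1, and by 0.21 below it for Gata1.

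Most genes that GATA1 switches on were lower in R216Q. Of the 20 measured, 17 fell and 0 rose, with a median difference of -0.38 against -0.01 over all genes. At an unadjusted p under 0.05 in the same limma fit, 18 were lower and 0 higher. The embryonic alpha-like globin gene Hba-x stood at 7.64, 7.63 and 7.72 in R216Q and at 9.78, 9.58 and 9.60 in wild type, a difference of -1.99 ± 0.07 (adjusted p = 1.3e-10). The arrays of the 2 lines were far apart, and the beta-like embryonic globin gene Hbb-y fell by 1.13 ± 0.11. Slc4a1, the band 3 anion exchanger, read 11.33, 11.29 and 11.43 in R216Q against 12.43, 12.45 and 12.36 (adjusted p = 2.52e-09). Epb42, which anchors band 3 to the membrane skeleton, read 7.68, 7.74 and 7.63 against 8.79, 8.64 and 8.79, and fell by 1.06 ± 0.08 (adjusted p = 1.39e-07). The 3 genes not called were Klf1, Zfpm1 and Btg2. Klf1, an erythroid transcription factor, differed by -0.09 ± 0.04 (adjusted p = 0.0997), Zfpm1, which encodes FOG1, by -0.07 ± 0.03 (adjusted p = 0.178), and Btg2, an antiproliferative gene, by -0.07 ± 0.04 (adjusted p = 0.25). Klf1 and Zfpm1 were called lower with a robust eBayes with trend (adjusted p = 0.0151 and 0.0334) and with array weights (0.0164 and 0.0229), and Klf1 also among the brighter genes alone (0.0316).

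Haem synthesis and the red cell skeleton followed the same direction. In the haem list, which includes the carriers that feed the pathway, 12 of 17 genes fell and 0 rose (median -0.21). An unadjusted p under 0.05 was reached by 12 lower and 1 higher. Uros, which closes the ring of the haem precursor, read 9.82, 9.85 and 9.88 in R216Q and 10.71, 10.70 and 10.74 in wild type (difference -0.86 ± 0.04, adjusted p = 5.25e-10). Abcb6, a porphyrin transporter, fell by 0.84 ± 0.04, Slc25a37, the mitochondrial iron importer, by 0.44 ± 0.03, and Alas2, the rate-limiting erythroid enzyme, by 0.31 ± 0.06 (adjusted p = 0.000978). The genes not called included Flvcr1, a haem exporter (-0.14 ± 0.07, adjusted p = 0.195), whose dimmer probe set was called lower (-0.20, adjusted p = 0.0146), as was the mean of both (adjusted p = 0.0295). Of 30 red cell membrane and skeleton genes 16 fell and 3 rose (median -0.16), or 1 rose without wild-type replicate 1.

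Tropomodulins, which cap the short actin filaments under the membrane, had the deepest falls of the skeleton list. Tmod3 stood at 8.87, 8.89 and 8.92 in R216Q and at 10.68, 10.70 and 10.72 in wild type, a fall of 1.81 ± 0.04 (adjusted p = 9.1e-13), and the R216Q arrays lay below every array of the series. Its erythroid relative Tmod1 fell by 1.43 ± 0.06 (adjusted p = 2.36e-10) on the brighter of its probe sets, while the dimmer one differed by -0.26 (adjusted p = 0.149). The urea transporter gene Slc14a1 fell by 1.39 ± 0.07 and the actin-bundling gene Dmtn (dematin) by 1.07 ± 0.05. Cd55 and Cd59a, which guard cells against complement, were not called, at -0.28 ± 0.14 and -0.17 ± 0.08 (adjusted p = 0.218 and 0.202).

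The promoters of these genes were read for GATA motifs, since GATA1 acts by binding such letters. RefSeq promoter sequence (GRCm38.p6) was matched by symbol for 15610 of the 19933 genes. The 250 bases before the first listed start of each gene were searched on both strands. Several promoters were listed for 2637 of these genes, and those after the first were not searched. The motif AGATAA, or its reverse complement on the other strand, was present in 8.75% of all matched genes, in 6.14% of those called higher and in 6.48% of those called lower. Among genes with at least 2-fold differences it was present in 4 of 35 matched falls (11.4%) and 3 of 39 matched rises (7.69%). The falls were Epb42, Spns2, Cpz and 6030468B19Rik, and the rises Cd44, Papss2 and Erv3. The sequences of the erythroid gene Epb42, of Spns2, a sphingosine-1-phosphate exporter that fell by 1.17 ± 0.04, of Cpz, a carboxypeptidase that fell by 1.08 ± 0.06, and of Cd44, the hyaluronan receptor that rose by 1.22 ± 0.05, are shown with that of Alas2 to display the motif in its context, with AGATAA or TTATCT in capitals. Spns2, Cpz, Papss2 and 6030468B19Rik were chosen after their values were seen. All are written 5′ to 3′ on the strand of the gene and end at the base before its start: Epb42 from chr2:121036878-121037127 (minus strand), Spns2 from chr11:72475028-72475277 (minus), Cpz from chr5:35525627-35525876 (minus), Cd44 from chr2:102901666-102901915 (minus) and Alas2 from chrX:150547167-150547416 (plus).
Epb42: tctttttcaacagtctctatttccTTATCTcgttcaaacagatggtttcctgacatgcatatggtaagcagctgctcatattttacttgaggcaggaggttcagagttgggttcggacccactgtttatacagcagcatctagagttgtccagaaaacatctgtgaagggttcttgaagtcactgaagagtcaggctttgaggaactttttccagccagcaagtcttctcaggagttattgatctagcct
Spns2: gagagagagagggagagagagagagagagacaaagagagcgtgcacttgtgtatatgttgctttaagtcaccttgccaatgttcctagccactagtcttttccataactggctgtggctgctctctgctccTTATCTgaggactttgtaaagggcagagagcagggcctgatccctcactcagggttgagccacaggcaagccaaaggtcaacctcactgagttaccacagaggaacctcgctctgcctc
Cpz: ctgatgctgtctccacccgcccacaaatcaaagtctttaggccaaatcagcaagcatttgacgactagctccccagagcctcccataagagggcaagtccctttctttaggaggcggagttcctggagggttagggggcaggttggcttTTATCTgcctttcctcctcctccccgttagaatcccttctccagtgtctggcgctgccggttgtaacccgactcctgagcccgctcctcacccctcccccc
Cd44: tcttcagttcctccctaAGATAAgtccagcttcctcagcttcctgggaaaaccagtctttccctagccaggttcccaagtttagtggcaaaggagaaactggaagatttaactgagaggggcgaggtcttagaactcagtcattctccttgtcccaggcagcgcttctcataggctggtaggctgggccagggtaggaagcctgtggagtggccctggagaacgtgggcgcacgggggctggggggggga
Alas2: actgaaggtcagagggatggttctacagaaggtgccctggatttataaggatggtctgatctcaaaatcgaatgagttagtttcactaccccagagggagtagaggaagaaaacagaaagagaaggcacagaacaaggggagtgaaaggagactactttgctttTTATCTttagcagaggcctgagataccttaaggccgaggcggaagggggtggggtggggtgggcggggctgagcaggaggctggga
The motif began 226 bases before the start in Epb42, 119 in Spns2, 101 in Cpz, 233 in Cd44 and 86 in Alas2. The T form of the motif, TGATAA, was present in 6.25% of all matched genes, in 4.11% of those called higher, in 3.81% of those called lower, in 5 of 35 falls of at least 2-fold (14.3%) and in 4 of 39 rises (10.3%). The CACC box CCACCC, read by Kruppel-like factors, was present in 30.9% of all matched genes, 31.8% of those called higher and 33.4% of those called lower. The GC box GGGGCGG was in 30.4% of all, in 42.5% of those called higher and in 42.4% of those called lower. These shares describe letters in a short window and were not tested.

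Partners of GATA1 on DNA were lower more often than higher. Of 32 measured, 13 fell and 6 rose (median -0.08). Cbfa2t3 (ETO2), a corepressor of the TAL1 and GATA1 complex, read 9.69, 9.65 and 9.72 in R216Q and 10.24, 10.23 and 10.27 in wild type (difference -0.56 ± 0.04, adjusted p = 2.8e-08). Brd3, a bromodomain protein that binds acetylated GATA1, fell by 0.55 ± 0.04 and Tcf3, the E protein that pairs with TAL1, by 0.38 ± 0.04. Ssbp2, which stabilises LDB1, fell by 0.58 ± 0.04, whereas Cbfb, the RUNX partner, rose by 0.59 ± 0.06. The bridging factor Lmo2 was at -0.10 ± 0.04 (adjusted p = 0.0781).

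Other transcription factor families went both ways. Of 23 Kruppel-like and NF-E2 family genes, 4 rose and 6 fell (median -0.05): Nfe2, the erythroid and megakaryocyte subunit of NF-E2, fell by 0.70 ± 0.04 (adjusted p = 2.59e-08) and Klf13 by 0.41 ± 0.04, while Klf6 rose by 0.61 ± 0.05. Of 20 ETS factors, 2 rose and 5 fell. Spi1 (PU.1), a myeloid factor that opposes GATA1, read 8.31, 8.31 and 7.90 in R216Q and 9.15, 9.10 and 9.08 in wild type and fell by 0.93 ± 0.10 (adjusted p = 3.88e-06). Fli1, a megakaryocyte factor, fell by 0.54 ± 0.07. The risers were Etv5, a target of MAP kinase signalling (1.32 ± 0.07), and Ehf, an epithelial ETS factor (1.28 ± 0.07, 7.26, 7.31 and 7.21 against 6.01, 5.88 and 6.08, adjusted p = 1.03e-08).

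Genes that GATA1 represses did not move together. Of 17 measured, 7 rose and 3 fell, with a median of 0.02. Kit, the stem cell factor receptor, read 10.98, 10.93 and 10.98 in R216Q and 9.54, 9.56 and 9.42 in wild type, a 2.73-fold difference (adjusted p = 1.58e-11). Gata2 read 9.48, 9.49 and 9.48 against 8.29, 8.25 and 8.40 (adjusted p = 1.41e-10), and Hhex, a homeobox factor of early progenitors, 8.46, 8.33 and 8.31 against 6.86, 7.05 and 6.56 (difference 1.54 ± 0.10, adjusted p = 4.37e-08). In all 3 the R216Q arrays were above every wild-type array. Myb rose by 0.53 ± 0.03 and Myc by 0.31 ± 0.05, while Cdk6 was at -0.09 ± 0.04 (adjusted p = 0.103) and Csf1r at -0.08 ± 0.10 (adjusted p = 0.719). In the wider progenitor list 7 of 29 rose and 3 fell (median -0.03), a share of 34.5% called beside 21.5% of all genes. Cd44 was among the rises, and Adgrg1, an adhesion receptor of stem cells, was the deepest fall (-0.78 ± 0.04).

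Most platelet genes were not called. Of 19 megakaryocyte and platelet genes 5 fell and 0 rose (median -0.06), a share of 26.3% called, near the 21.5% of all genes; at an unadjusted p under 0.05 there were 6 lower and 1 higher. Gp9, a subunit of the platelet receptor for von Willebrand factor, read 7.52, 7.52 and 7.79 in R216Q and 9.24, 9.20 and 9.20 in wild type (difference -1.61 ± 0.06, adjusted p = 2e-10), and R216Q replicate 3 was the highest of its line. Tubb1, the beta-tubulin of the platelet marginal band, read 8.09, 8.10 and 8.07 against 9.89, 9.74 and 9.85 (adjusted p = 2.38e-09). Plek (pleckstrin), the main protein kinase C substrate of platelets, fell by 1.57 ± 0.08, and Itgb3, the platelet integrin beta chain, by 0.45 ± 0.05. The alpha chain gene Itga2b was at -0.11 ± 0.07 (adjusted p = 0.36) and Pf4, a granule chemokine, at -0.14 ± 0.05 (adjusted p = 0.0716). In bulk RNA, fewer cells expressing a gene and less RNA per cell cannot be told apart.

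Mast cell and amine genes were led by Tph1, the rate-limiting enzyme of serotonin synthesis. It read 8.03, 7.80 and 7.79 in R216Q and 5.29, 5.19 and 5.40 in wild type, a 5.96-fold difference (adjusted p = 1.66e-11). Of 20 mast cell genes 4 rose, and they were Tph1, Kit, Gata2 and Hdc, the histamine-forming enzyme (0.35 ± 0.06); the protease gene Mcpt2 fell by 0.52 ± 0.08. The share called was 25%, beside 21.5% of all genes. The shares are not matched for level, since 16 of the 20 genes lay below the median level, where few calls were made. The mast cell granule genes Mcpt1 and Tpsab1 were at -0.22 ± 0.08 and 0.17 ± 0.06 (adjusted p = 0.0654 and 0.0534). The mean over the mast cell list ran from 5.48 to 5.53 in wild type and from 5.74 to 5.80 in R216Q. The median difference over the list was 0.02, so the list as a whole did not rise. Kit and Gata2 are also on the progenitor and GATA1-repressed lists. The part of the list mean in single genes was not tested. Of 16 amine genes 4 rose and 1 fell (median 0.004), a share of 31.2% called against 21.5% of all genes. Tph1 and Hdc, also on the mast cell list, were among the rises. Maoa, which breaks down serotonin, read 7.58, 7.60 and 7.47 in R216Q against 6.21, 6.21 and 6.27 (adjusted p = 1.87e-08). The fall was that of Gch1 (-0.296, adjusted p = 0.0204), which lost its call with quantile normalization (adjusted p = 0.0573).

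The single largest rise was that of Slc30a2, a zinc transporter of vesicles. Its level was 9.98, 10.04 and 10.06 in R216Q and 6.83, 6.61 and 6.49 in wild type, a 10.4-fold difference (adjusted p = 4.92e-12). Among 27 zinc transporter and metallothionein genes 6 rose and 8 fell (median -0.03), so the family did not move together. The importers Slc39a10 and Slc39a6 rose by 0.66 ± 0.05 and 0.51 ± 0.09, and the exporter Slc30a1 fell by 0.32 ± 0.04.

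Cytokine receptor genes were more often higher. Of 36 genes of receptors and JAK-STAT signalling 14 rose and 5 fell (median 0.13), and the falls were 3 without wild-type replicate 1, without wild-type replicate 3 or without R216Q replicate 3. Il9r, the interleukin-9 receptor, read 10.003, 9.98 and 9.93 in R216Q and 9.03, 8.98 and 9.02 in wild type (difference 0.96 ± 0.05, adjusted p = 2e-09). Il10rb, a chain shared by receptors of the interleukin-10 family, rose by 0.86 ± 0.05, Il4ra, the interleukin-4 receptor chain, by 0.82 ± 0.06, and Ifngr1, the interferon gamma receptor, by 0.78 ± 0.08. Epor, the erythropoietin receptor on which red cell precursors depend, went the other way, at 10.72, 10.74 and 10.69 in R216Q and 11.05, 10.99 and 11.09 in wild type (adjusted p = 6.43e-06). In the interferon response list 5 of 25 fell and 0 rose, with 7 lower and 0 higher at an unadjusted p under 0.05, a share of 20% called that was near the 21.5% of all genes. Irf9, part of the interferon transcription complex, fell by 0.50 ± 0.05.

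Of 44 immediate early and MAP kinase feedback genes 8 rose and 5 fell (median 0.03), a share of 29.5% called against 21.5% of all genes. Egr1, a zinc finger factor induced by growth signals, read 8.69, 8.68 and 8.70 in R216Q and 7.29, 7.198 and 7.44 in wild type (difference 1.38 ± 0.06, adjusted p = 8.74e-10). Dusp1, a phosphatase that switches MAP kinases off, read 9.78, 9.61 and 9.70 against 10.82, 10.83 and 10.86 and fell by 1.14 ± 0.04 (adjusted p = 2e-10). Zfp36, which speeds decay of cytokine mRNAs, rose by 0.92 ± 0.05 and Phlda1 by 1.02 ± 0.05. Ier2 was at 0.25 ± 0.09 (adjusted p = 0.0681) and Egr2 at 0.17 ± 0.09 (adjusted p = 0.25).

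Most surface adhesion genes and annexins were not called. Of 41 adhesion genes 4 rose and 7 fell (median -0.04), a share of 26.8% called, near the 21.5% of all genes. Cd44 read 8.96, 8.91 and 8.78 in R216Q and 7.65, 7.71 and 7.63 in wild type (adjusted p = 7.18e-10), and Selplg, the ligand of P-selectin, rose by 0.62 ± 0.06. Itgb2, the beta chain of leukocyte integrins, fell by 0.72 ± 0.05 and Itga4, a chain of the VLA-4 integrin, by 0.45 ± 0.04. Of 30 annexin, S100 and related genes 5 rose and 5 fell, the falls being 3 without wild-type replicate 1 or R216Q replicate 3. Anxa2, a calcium-dependent membrane binder, rose by 1.19 ± 0.15, whereas its partner S100a10 was at -0.12 ± 0.09 (adjusted p = 0.442), and the galectin gene Lgals1 fell by 0.81 ± 0.04.

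**Figure D2:**
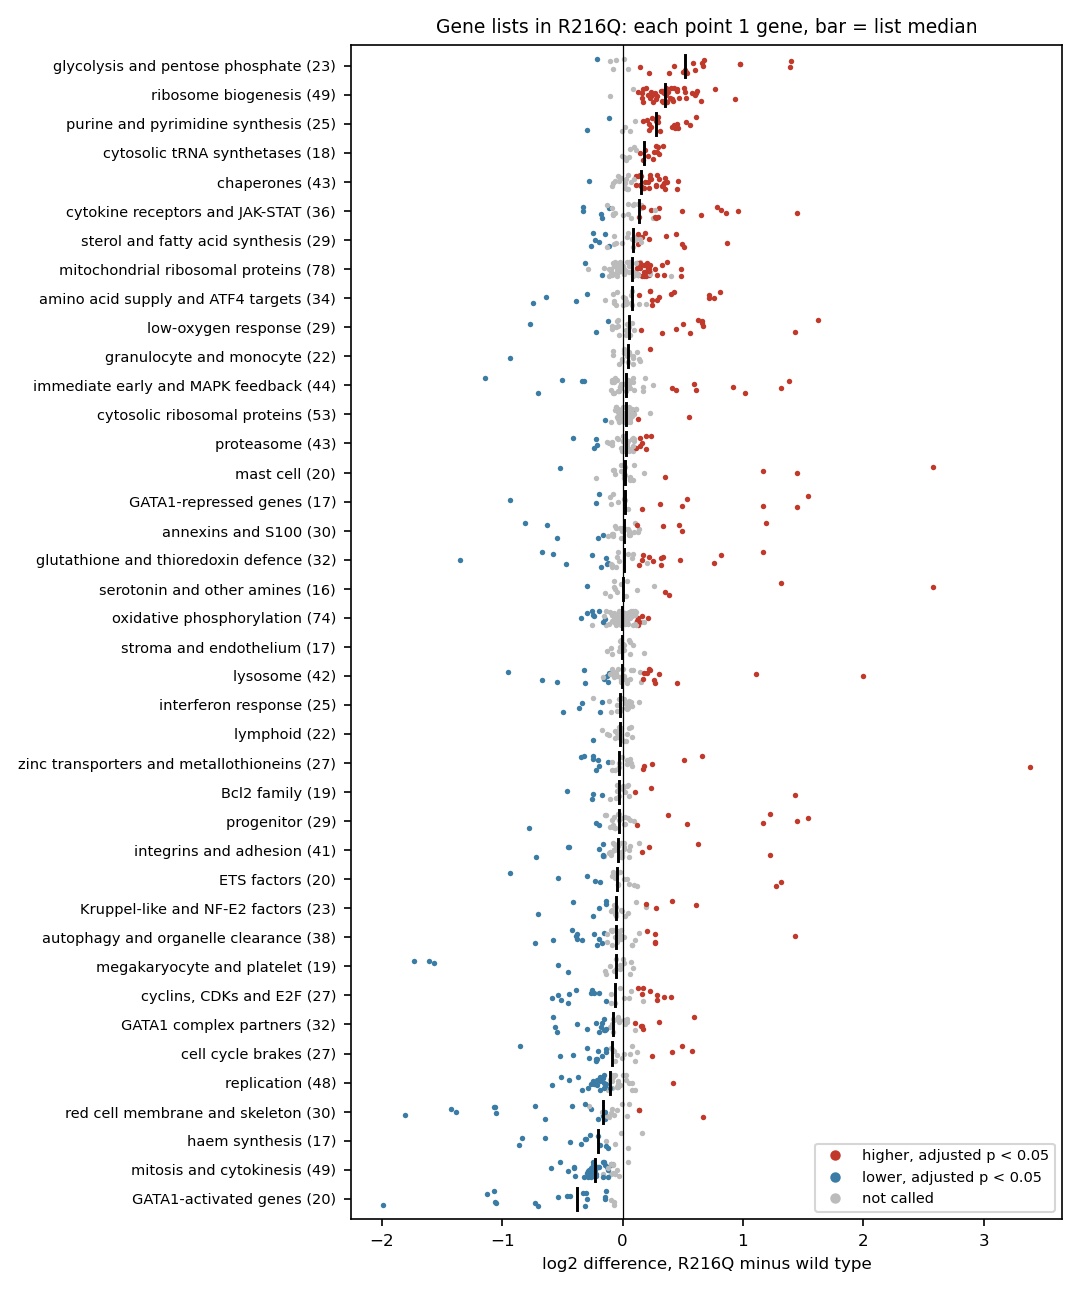
Log2 difference between R216Q and wild type for the measured genes of 40 lists (number of genes in brackets), 1 point per gene, with the list median as a black bar. Colours give genes higher, lower or not called at an adjusted p under 0.05 over all genes; lists are ordered by their median, from -0.38 for GATA1-activated genes to 0.52 for glycolysis and the pentose phosphate pathway.

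Glycolysis had the highest list median. Of 23 genes of glycolysis, hexose and lactate transport and the pentose phosphate pathway, 17 rose and 1 fell (median 0.52), or 2 fell without R216Q replicate 3. Pfkp, the platelet-type phosphofructokinase, read 10.25, 10.12 and 10.29 in R216Q and 8.78, 8.81 and 8.87 in wild type (difference 1.401 ± 0.06, adjusted p = 4.47e-10). Pgam1, phosphoglycerate mutase, rose by 1.39 ± 0.06, Hk2, a hexokinase, by 0.98 ± 0.09, and Pkm, the pyruvate kinase of proliferating cells, by 0.97 ± 0.07. Slc16a3, which exports lactate, rose by 0.68 ± 0.08. The list's fall was that of Pklr, the pyruvate kinase of red cells and liver (-0.21 ± 0.03, adjusted p = 0.000248), chosen after its value was seen. Bpgm, which makes the red cell's 2,3-bisphosphoglycerate, was at -0.08 ± 0.07 (adjusted p = 0.571).

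Genes known to respond to low oxygen overlapped in part with glycolysis. Of 29 measured 11 rose and 3 fell (median 0.06). Plod2, a collagen lysyl hydroxylase, read 8.29, 8.01 and 8.07 in R216Q and 6.64, 6.59 and 6.26 in wild type (adjusted p = 1.36e-06). Bnip3, a mitochondrial protein of mitophagy, read 10.91, 10.58 and 10.86 against 9.47, 9.42 and 9.16 (difference 1.43 ± 0.12, adjusted p = 5.41e-07). Slc2a1, a glucose carrier, rose by 0.67 ± 0.07 and Vegfa, a vascular growth factor, by 0.66 ± 0.05, whereas Pfkfb4 fell by 0.77 ± 0.04. Egln3 was at -0.08 ± 0.08 (adjusted p = 0.581) and Ankrd37 at 0.10 ± 0.05 (adjusted p = 0.233).

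Amino acid genes changed in both directions. Of 34 genes of amino acid supply and ATF4 targets 13 rose and 4 fell (median 0.08). Sesn2, a leucine sensor, rose by 0.81 ± 0.05, Slc7a11, the cystine importer, by 0.76 ± 0.10, and the folate cycle genes Shmt1 and Mthfd1l by 0.72 ± 0.05 and 0.72 ± 0.04. Slc6a9, the glycine transporter that supplies haem synthesis, read 10.51, 10.48 and 10.57 in R216Q and 11.26, 11.21 and 11.33 in wild type and fell by 0.74 ± 0.04 (adjusted p = 4.56e-09). Of 18 cytosolic tRNA synthetase genes 11 rose and 0 fell (median 0.18), led by Tars at 0.34 ± 0.04 and Nars at 0.31 ± 0.04; at an unadjusted p under 0.05 there were 13 higher and 0 lower.

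Most nucleotide and ribosome assembly genes rose in small steps. Of 25 genes of purine and pyrimidine synthesis 19 rose and 2 fell (median 0.28), and the falls were 1 without wild-type replicate 2 or 3 or without R216Q replicate 1 or 2. Aprt, a purine salvage enzyme, rose by 0.61 ± 0.05, Prps2, which makes the ribose phosphate donor, by 0.56 ± 0.04, and Ctps, the CTP synthase, by 0.45 ± 0.06. Of 49 genes of nucleolar ribosome assembly 47 rose and 0 fell (median 0.35). At an unadjusted p under 0.05 there were 48 higher and 1 lower, and 1 fell when R216Q replicate 3 was left out. Rrp1b read 9.12, 9.13 and 9.19 in R216Q and 8.20, 8.22 and 8.20 in wild type (difference 0.94 ± 0.05, adjusted p = 3.08e-09). The pre-rRNA processing gene Rrp9 rose by 0.77 ± 0.05, Tsr1 by 0.62 ± 0.06, and Srm, the spermidine synthase kept on this list, by 0.66 ± 0.05. The members not called were Ubtf, the polymerase I factor (-0.10 ± 0.04, adjusted p = 0.0639), and Nop56 (0.08 ± 0.03, adjusted p = 0.0786).

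The proteins of the ribosome itself were mostly not called. Of 53 cytosolic ribosomal protein genes 3 rose and 1 fell (median 0.03), and without wild-type replicate 3 or R216Q replicate 1 only 1 rose. The rises were 6 among the brighter genes alone, 8 with a robust eBayes with trend and 12 with array weights. Rpl12 was the largest at 0.55 ± 0.05 (adjusted p = 7.38e-07). Many of these genes have near-identical processed copies in the genome that a probe set may read as well. Of 78 mitochondrial ribosomal protein genes 28 rose and 2 fell (median 0.08), with Mrps27 at 0.49 ± 0.06 and Mrpl15 at 0.48 ± 0.04; the falls were 1 without wild-type replicate 1 or 3 or R216Q replicate 3. Of 74 genes of oxidative phosphorylation 7 rose and 8 fell (median -0.004), a share of 20.3% against 21.5% of all genes. Of the 74, 0 lay below the median level, where few calls were made, so these shares are not matched for level. The rises were 2 without wild-type replicate 1 and 4 without wild-type replicate 3 or R216Q replicate 1, and the falls 5 without wild-type replicate 3 or R216Q replicate 3. Among the brighter genes alone 14 rose and 13 fell, with a robust eBayes with trend 15 and 14, and with array weights 22 and 15. With the compared lines alone 2 rose and with the replicate number as a block 4. Ndufs3, a complex I subunit, was at -0.29 ± 0.03 (adjusted p = 5.55e-06).

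Chaperone genes were higher more often than lower, and most proteasome genes were not called. Of 43 chaperone genes 27 rose and 1 fell (median 0.15). Pdia4, a disulphide isomerase of the endoplasmic reticulum, rose by 0.46 ± 0.05, Ahsa1, an activator of HSP90, by 0.45 ± 0.03, and the mitochondrial chaperones Hspa9 and Hspd1 by 0.36 ± 0.04 and 0.35 ± 0.03. Hspa1a, the inducible heat shock protein, was at -0.09 ± 0.11 (adjusted p = 0.711). Of 43 proteasome genes 7 rose and 4 fell (median 0.03), a share of 25.6% called, beside 21.5% of all genes. Only 2 of the 43 lay below the median level, where few calls were made, so these shares are not matched for level. The rises were 4 without wild-type replicate 1 or R216Q replicate 1 or 2, 12 among the brighter genes alone and 15 with array weights. Psme1, of the interferon-inducible activator, fell by 0.41 ± 0.04.

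Lysosome, redox and lipid genes changed in both directions. Of 42 lysosomal genes 11 rose and 9 fell (median -0.01). Lgmn (legumain), an asparaginyl protease, read 8.46, 8.46 and 8.37 in R216Q and 6.36, 6.42 and 6.52 in wild type (difference 2.00 ± 0.07, adjusted p = 8.5e-11), and Ctsl, a cathepsin, rose by 1.11 ± 0.04, while the cathepsin genes Ctsc and Ctsb fell by 0.95 ± 0.13 and 0.55 ± 0.04. Within the cathepsins, then, the direction depended on the member.

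Of 32 glutathione and thioredoxin genes 12 rose and 9 fell (median 0.01). Hmox1, which degrades haem, read 8.0, 7.92 and 7.80 in R216Q and 6.80, 6.72 and 6.71 in wild type (adjusted p = 3.27e-07). Mgst3, a microsomal glutathione transferase, read 7.78, 7.84 and 7.92 against 9.25, 9.18 and 9.16 and fell by 1.35 ± 0.08 (adjusted p = 1.88e-08), and Gsta4 rose by 0.81 ± 0.07. Among 29 genes of sterol and fatty acid synthesis 10 rose and 6 fell (median 0.08). The leading rises were all of the fatty acid branch: Scd2, a desaturase (0.87 ± 0.03), Acaca, which makes malonyl-CoA (0.51 ± 0.04), the elongases Elovl5 and Elovl6 (0.49 ± 0.05 and 0.45 ± 0.05) and Fasn, the fatty acid synthase (0.36 ± 0.04).

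Most mitosis genes were lower by small amounts. Of 49 measured 38 fell and 0 rose (median -0.23), and at an unadjusted p under 0.05 there were 43 lower and 0 higher. Cit, the citron kinase of cytokinesis, read 10.47, 10.43 and 10.44 in R216Q and 11.05, 11.04 and 11.02 in wild type (difference -0.59 ± 0.03, adjusted p = 7.84e-09), Cenpf, a kinetochore protein, fell by 0.52 ± 0.04, and Birc5 (survivin) by 0.40 ± 0.03. Of 48 replication genes 22 fell and 1 rose (median -0.10), or 2 rose without wild-type replicate 2. Rfc2, of the clamp loader, fell by 0.59 ± 0.04, Tk1, thymidine kinase, by 0.45 ± 0.05, and the polymerase delta subunits parted, with Pold1 at -0.37 ± 0.05 and Pold2 at 0.42 ± 0.04.

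Regulators of the cell cycle changed on both sides. Of 27 cyclin, CDK and E2F genes 8 rose and 11 fell (median -0.06). E2f2, the E2F factor that GATA1 induces in red cell precursors, fell by 0.53 ± 0.05, E2f8 by 0.58 ± 0.04 and Ccnd3, the cyclin that sets the divisions of late erythroblasts, by 0.51 ± 0.04. Among 27 genes that restrain the cycle 12 fell and 4 rose (median -0.08): Gadd45g read 8.51, 8.46 and 8.31 in R216Q and 9.34, 9.20 and 9.30 in wild type (adjusted p = 2.74e-07), and Tob1 rose by 0.57 ± 0.05. The CDK inhibitor gene Cdkn1b was at 0.12 ± 0.04 (adjusted p = 0.0738).

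Survival and clearance genes had few large changes. Of 19 Bcl2 family genes 3 rose and 4 fell, a share of 36.8% called beside 21.5% of all genes. Only 2 of the 19 lay below the median level, where few calls were made, so these shares are not matched for level. The largest change on this list was the rise of Bnip3, at 1.43 ± 0.12. Bcl2l1 (Bcl-xL), which protects erythroblasts and is switched on by GATA1, read 8.53, 8.56 and 8.55 in R216Q and 8.97, 9.04 and 9.02 in wild type (adjusted p = 1.44e-07). The rises were 1 without wild-type replicate 2 or 3 or R216Q replicate 1 or 2, and the falls 2 without wild-type replicate 1. Of 38 autophagy and organelle clearance genes 12 fell and 5 rose, or 3 rose without wild-type replicate 1 or R216Q replicate 2 (median -0.06). The share called was 44.7%, beside 21.5% of all genes, and the largest change was a rise of 1.43. Only 3 of the 38 lay below the median level, so here too the shares are not matched for level. Trim10, an erythroid ubiquitin ligase, fell by 0.73 ± 0.03, Atg9a, the autophagy scramblase, by 0.58 ± 0.04, and Pink1, a mitophagy kinase, by 0.39 ± 0.05.

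Several of the largest changes lay outside these lists. Gask1b, a Golgi protein, read 8.99, 9.05 and 8.96 in R216Q and 6.72, 6.78 and 6.96 in wild type, Pkp2, a desmosomal plakophilin, 8.87, 8.88 and 8.93 against 6.97, 7.09 and 6.87, and Slc7a6, an amino acid transporter, 8.56, 8.61 and 8.49 against 6.67, 6.50 and 6.52. Their differences were 2.18 ± 0.09, 1.92 ± 0.07 and 1.99 ± 0.08, with no overlap between the lines. The PIWI gene Piwil4 rose by 1.79 ± 0.06 (adjusted p = 8.5e-11), the endogenous retroviral gene Erv3 by 1.65 ± 0.09, Npl, a sialic acid lyase, by 1.51 ± 0.07, Kcne3, a potassium channel subunit, by 1.53 ± 0.09, Abi2, an actin regulator, by 1.48 ± 0.05 and Cep55, of the midbody, by 1.48 ± 0.07. Dlc1 rose by 1.81 ± 0.07 on its brighter probe set and was at -0.05 on the dimmer one (adjusted p = 0.75).

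On the falling side Slc22a4, a carrier of ergothioneine and carnitine, read 7.64, 7.71 and 7.70 in R216Q and 10.06, 9.88 and 9.93 in wild type (difference -2.27 ± 0.06, adjusted p = 6.68e-12). Rragd, a Rag GTPase of the lysosomal nutrient signal, read 8.02, 8.11 and 8.001 against 9.67, 9.73 and 9.58 (adjusted p = 2e-09). Micall2, an actin and membrane traffic gene, fell by 1.72 ± 0.07, Cpne7, a copine, by 1.66 ± 0.07, Gstt1, a glutathione transferase, by 1.63 ± 0.11, while Lrrc39 fell by 1.61 ± 0.10, Dnajb2, a cochaperone, by 1.46 ± 0.07 and Mfsd2b, the sphingosine-1-phosphate exporter of red cells and platelets, by 1.39 ± 0.04. Placeholder symbols were passed over, among them Gm5662 (-3.05) and I830077J02Rik (-1.91). The 15 largest rises and 15 largest falls with other symbols thus include transporters, cytoskeletal genes and platelet genes beside the red cell genes.

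R216W changes the same residue to another amino acid, and the lines were compared directly. Between R216Q and R216W 3369 genes were called (16.9%), 1725 higher in R216Q (8.65%) and 1644 lower (8.25%). Of the 55 genes at least 2-fold higher in R216Q than in wild type, 38 were also higher in R216Q than in R216W, 4 were lower and 13 were not called. Of the 45 falls, 35 were lower in R216Q than in R216W, 2 higher and 8 not called. Those genes were picked for their size in R216Q, so the counts describe them and are not a test of the set.

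Red cell genes were among those that parted the lines. Slc4a1 read 12.28, 12.30 and 12.27 in R216W, and was lower in R216Q by -0.94 ± 0.05 (adjusted p = 1.18e-08). Hba-x read 9.13, 8.97 and 9.29 in R216W (R216Q minus R216W -1.47 ± 0.07), and Gp9 read 8.69, 8.69 and 8.66 (-1.07 ± 0.06). Of the 20 activated genes 10 were lower and 1 higher in R216Q. The progenitor genes went several ways: Kit was higher in R216Q (0.61 ± 0.04, adjusted p = 5.66e-08), whereas Gata2 was at -0.09 ± 0.04 (adjusted p = 0.232) and Hhex at 0.19 ± 0.10 (adjusted p = 0.273). Nor did the test separate the lines for Slc30a2 (-0.01 ± 0.08, adjusted p = 0.982), Tph1 (-0.08 ± 0.07, adjusted p = 0.651) or Alas2 (0.08 ± 0.06, adjusted p = 0.484). Tubb1 was higher in R216Q, by 0.52 ± 0.09.

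Housekeeping lists also differed. Ribosome assembly genes were higher in R216Q than in R216W for 39 of 49 and lower for 1, tRNA synthetases higher for 14 of 18 and lower for 0, and glycolysis genes higher for 12 of 23 and lower for 0. Unadjusted p under 0.05 was reached by 16 tRNA synthetases higher and 0 lower, and by 13 glycolysis genes higher and 1 lower. GATA1 partners were lower in R216Q for 13 of 32 and higher for 0, with 18 lower and 1 higher at an unadjusted p under 0.05. Haem synthesis genes were higher for 4 and lower for 9 of 17. Mast cell genes were higher for 3 of 20 and lower for 0. Over all genes 16.9% were called, 8.65% higher in R216Q and 8.25% lower, so the mast cell count does not set that list apart.

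**Figure D3:**
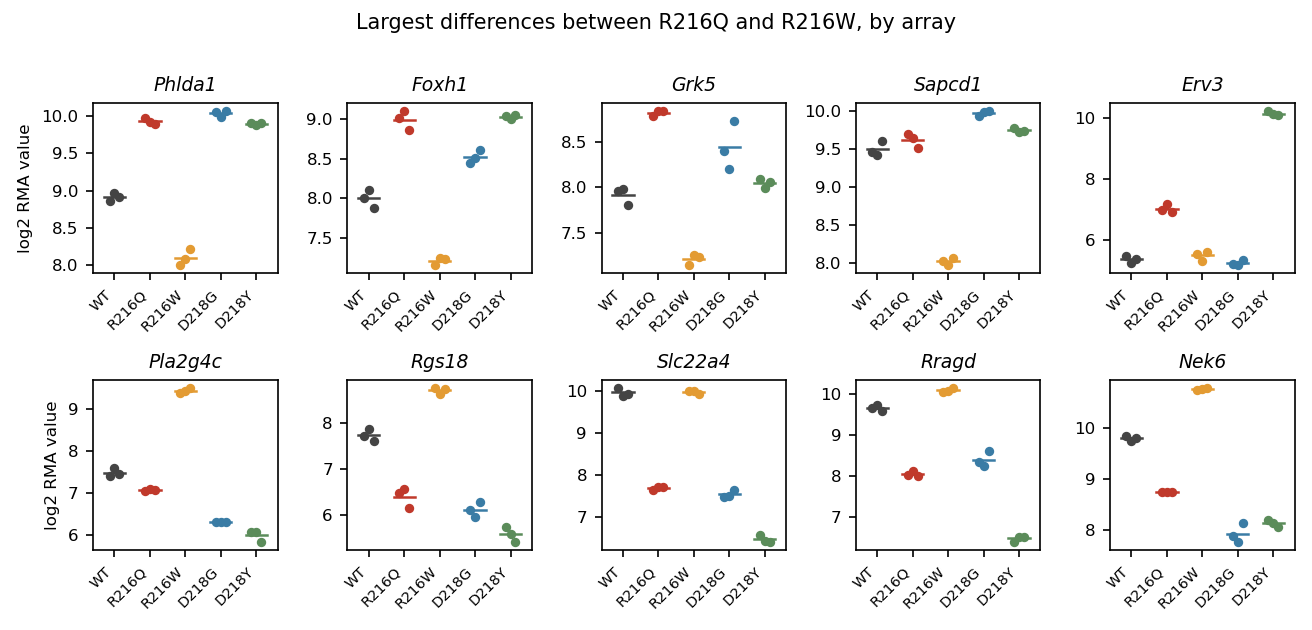
Log2 RMA value by array of the 5 genes most above (top) and the 5 most below (bottom) R216W in R216Q, with all 5 lines shown; points are arrays, bars are line means (n = 3), and each panel has its own vertical axis. Phlda1, Foxh1 and Grk5 lie above wild type in R216Q and below it in R216W, and Pla2g4c, Rgs18, Rragd and Nek6 lie below wild type in R216Q and above it in R216W.

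The largest single differences from R216W had R216W and R216Q on opposite sides of wild type in many cases. Phlda1, a pleckstrin-homology protein of growth signalling, read 9.98, 9.92 and 9.90 in R216Q, 7.997, 8.07 and 8.21 in R216W and 8.86, 8.96 and 8.91 in wild type (R216Q minus R216W 1.84 ± 0.05, adjusted p = 1.36e-11). Foxh1, a forkhead partner of SMAD proteins, read 9.02, 9.10 and 8.86 in R216Q and 7.15, 7.24 and 7.23 in R216W (1.79 ± 0.07). Lonrf2, Ampd2, an AMP deaminase, and Mboat2, a phospholipid acyltransferase, were higher in R216Q by 1.47 ± 0.06, 1.36 ± 0.05 and 1.30 ± 0.05. Sapcd1 was higher by 1.59 ± 0.05 with R216Q at 0.12 ± 0.05 against wild type (adjusted p = 0.138).

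On the lower side Pla2g4c, a phospholipase A2, read 7.04, 7.09 and 7.06 in R216Q and 9.38, 9.43 and 9.49 in R216W (difference -2.37 ± 0.06, adjusted p = 1.36e-11). Rgs18, which dampens G protein signals in platelets, read 6.48, 6.56 and 6.14 against 8.77, 8.65 and 8.76 (-2.33 ± 0.11), and Nek6, a mitotic kinase, 8.74, 8.74 and 8.74 against 10.73, 10.76 and 10.78 (-2.02 ± 0.07). Slc22a4 read 9.99, 9.98 and 9.93 in R216W, where its difference from wild type was 0.01 ± 0.06 (adjusted p = 0.935). Aqp3, a water and glycerol channel, and Slc14a1 were lower in R216Q than in R216W by -1.86 ± 0.05 and -1.81 ± 0.07.

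D218G changes a residue of the same finger, and 2668 genes were called between it and R216Q (13.4%), 1299 higher in R216Q (6.52%) and 1369 lower (6.87%). When D218G was fitted without its replicate 3, 3005 were called, 1746 higher and 1259 lower, so the larger side turned. That side also turned with cyclic loess (1488 higher, 1464 lower), array weights (1296, 1063), the compared lines alone (782, 759) and both stricter thresholds. The same held without R216Q replicate 3 (1127, 1067). In the other alternatives counted for this pair the lower side stayed the larger. Slc4a1 read 11.30, 11.32 and 11.27 and Hba-x 7.64, 7.64 and 7.59 in D218G, and R216Q minus D218G was 0.05 ± 0.05 and 0.04 ± 0.07 (adjusted p = 0.692 and 0.874). Those red cell genes were therefore not separated by the test. Gata2 read 7.99, 8.02 and 8.06 in D218G and was higher in R216Q by 1.46 ± 0.04 (adjusted p = 2.87e-11). Slc30a2 and Tph1 read 6.67, 6.41 and 6.35 and 5.19, 5.22 and 5.07 in D218G, and were higher in R216Q by 3.55 ± 0.08 and 2.71 ± 0.07. Myb, by contrast, was lower in R216Q (-0.34 ± 0.03, adjusted p = 6.09e-06). By list, sterol and fatty acid genes were higher in R216Q than in D218G for 22 of 29 and lower for 1, and replication genes were lower for 29 of 48 and higher for 1.

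D218Y was the line farthest from wild type, and 6343 genes were called between it and R216Q (31.8%), 3062 higher in R216Q (15.4%) and 3281 lower (16.5%). Slc4a1 read 6.77, 6.93 and 6.72 in D218Y, and R216Q minus D218Y was 4.54 ± 0.05 (adjusted p = 3.95e-16). Alas2 differed likewise by 2.87 ± 0.06 and Hba-x by 1.01 ± 0.07, while Kit and Gata2 were lower in R216Q by -0.58 ± 0.04 and -1.68 ± 0.04. Of the 55 rises of at least 2-fold in R216Q, 40 were nearer to wild type than in D218Y, 5 farther and 10 not called; of the 45 falls, 35 were nearer, 5 farther and 5 not called. Slc30a2 was among those farther (0.50 ± 0.08, adjusted p = 0.000188), as was Tmod3 (-0.86 ± 0.04, adjusted p = 2.27e-10). Ribosome assembly genes were lower in R216Q than in D218Y for 48 of 49, and mitosis genes higher for 36 of 49.

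**Figure D4:**
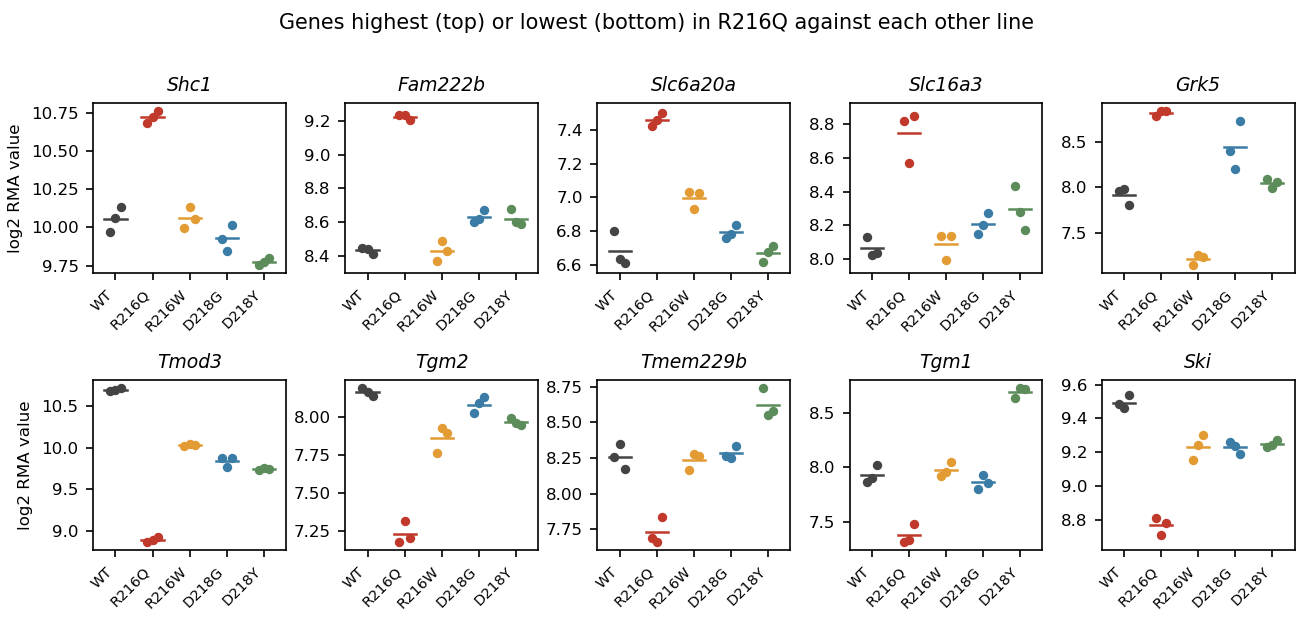
Log2 RMA value by array of the 5 genes that stood highest (top) and the 5 that stood lowest (bottom) in R216Q by the smallest of its differences from the other 4 lines, passing over placeholder symbols; points are arrays, bars are line means (n = 3), and each panel has its own vertical axis. In each panel the R216Q arrays lie beyond every array of the other lines.

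In R216Q 82 genes were higher than in each of the other 4 lines (0.411% of genes) and 82 lower than in each (0.411%), every one of the 4 differences being called. Few of them stood far apart: the smallest of the 4 differences was 0.5 or more for 2 of the higher and 4 of the lower genes, and 1 or more for 0. Shc1, an adaptor between receptor tyrosine kinases and RAS, read 10.68, 10.72 and 10.76 in R216Q, 9.97, 10.06 and 10.13 in wild type and 9.99, 10.13 and 10.06 in R216W (R216Q minus wild type 0.67 ± 0.05, adjusted p = 2.66e-07). Its R216Q arrays were above all other arrays. Grk5, a kinase that silences G protein-coupled receptors, read 8.79, 8.84 and 8.85 in R216Q, 7.96, 7.98 and 7.80 in wild type and 7.14, 7.25 and 7.23 in R216W. Slc6a20a, a proline carrier, was 0.77 ± 0.05 above wild type and Slc16a3, the lactate exporter, 0.68 ± 0.08, and both were above the other mutants too. Gab3, another adaptor of cytokine signalling, was 0.92 ± 0.07 above wild type, and Fam222b 0.79 ± 0.04, with its dimmer probe set at 0.10 (adjusted p = 0.377).

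By the smallest of the 4 differences the lowest was I830077J02Rik, a placeholder symbol, at 7.23, 7.05 and 6.99 in R216Q and 9.01, 8.99 and 8.99 in wild type, with at least 0.999 to each other line. Next were Tmod3 and Tgm2, and Tgm1 came further down; Tgm2 and Tgm1 are transglutaminases, which cross-link proteins. Tgm2 read 7.18, 7.32 and 7.21 in R216Q and 8.19, 8.16 and 8.14 in wild type (difference -0.93 ± 0.05, adjusted p = 4.68e-09) and was lower than in D218Y by -0.73 ± 0.05. Tgm1 read 7.32, 7.34 and 7.48 in R216Q, 7.87, 7.91 and 8.02 in wild type and 8.64, 8.73 and 8.71 in D218Y, so that R216Q and D218Y lay on opposite sides of wild type. Ski, a corepressor of TGF-beta signalling, fell by 0.73 ± 0.04 against wild type (adjusted p = 1.76e-08), Itgb2 by 0.72 ± 0.05 and Ifi30, a lysosomal thiol reductase, by 0.38 ± 0.05. Tmod3 differed from R216W by -1.14 ± 0.04, from D218G by -0.95 ± 0.04 and from D218Y by -0.86 ± 0.04, and its R216Q arrays lay below all other arrays.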

How the data were processed

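Total RNA from the 15 cultures was hybridised to Affymetrix mouse arrays, 1 array per culture. The authors deposited 1 log2 expression value per probe set and array. Partek 6.6 and RMA (background correction, quantile normalization and summary over probes) are named in the submitters' processing notes, and their settings were not stated there. RMA compresses differences of dim genes. The values were used unchanged and unfiltered, and the number of arrays, with no read depth, limits the precision.

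Of 28350 probe sets, 21780 had 1 gene symbol in the platform annotation, 1618 several and 4952 none listed; 1 probe set per gene, the one with the highest mean over all arrays, gave 19933 genes. limma 3.58.1 in R 4.3.3 fitted 1 mean per line over all 15 arrays (lmFit, contrasts, eBayes without trend), with Benjamini-Hochberg adjustment over all genes of a contrast and two-sided calls at an adjusted p under 0.05. Errors of log2 differences are moderated standard errors (SE). The fit was tested on simulated data. A gene apart in R216Q was called in the same direction against each of the other 4 lines.

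The 40 gene lists hold 1287 measured entries and received counts and medians, with no set test. The lists, the members and the tests were chosen with earlier results of these data known. The genes named in the text are Gata1, the 15 largest rises and falls against wild type and the 8 largest each way against R216W, among called genes whose arrays did not overlap, passing over placeholder symbols and small RNAs, the 8 highest and 8 lowest genes apart from all lines (also passing over placeholders), up to 5 called and 3 uncalled members per list, and 18 further red cell, progenitor and platelet genes. Exceptions are marked in the text. Alternatives were cyclic loess or quantile normalization, the brighter genes alone, the compared lines alone, a robust eBayes with trend, the replicate number as a block, array weights, stricter thresholds, every probe set or their mean per gene, and each array left out. Adult globin genes share probe sets with several symbols and were not analysed here.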

Additional observations from a re-analysis of the deposited data

How the results depend on the processing

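The direction of Gata1 and of every named gene that was called held under each alternative run. With every probe set no direction could change, since each named gene was read on the probe set of the main fit. Apart from these alternatives, the dimmer probe set of Dlc1 was at -0.05. Of 324 named genes 210 were called against wild type, and 11 of them lost the call in at least 1 alternative other than a stricter threshold. Of the 114 not called, 74 gained a call in at least 1 alternative, or 61 without counting array weights: 67 gained it with array weights, 33 among the brighter genes alone, 28 with a robust eBayes with trend, 20 with quantile normalization and 17 with cyclic loess. Of the 80 counts of genes higher or lower in a list, 27 rose by over 1.5 times with array weights, 9 among the brighter genes alone and 8 with the robust eBayes, and 5 to 10 fell by as much when 1 array of wild type or R216Q was left out. Gata1 stayed at -0.21 but does not pass a 2-fold threshold. The counts given for R216Q against wild type, R216W, D218G and D218Y and for genes apart from all lines (4283, 3369, 2668, 6343 and 164) moved by over 1.5 times as follows. With array weights R216Q against wild type, R216W and D218Y gave 7357, 5397 and 9935; the weights did not reach their convergence tolerance. With the compared lines alone R216Q against D218G gave 1541 and the genes apart 107, with fewer arrays to estimate the spread. With an adjusted p under 0.01 the genes apart numbered 96. A 2-fold threshold, stricter by construction, left 100, 76, 52, 210 and 0. Leaving out single arrays gave 3682 to 4100, 2781 to 2955, 2194 to 3005, 5164 to 6106 and 128 to 188 in the same order, and -0.212 to -0.202 for Gata1. With the replicate number as a block the counts were 4020, 3125, 2431, 5844 and 139. Which direction held more genes also changed in some alternatives. Against R216W 1817 were higher and 1830 lower in R216Q with cyclic loess, and against D218Y 5845 and 4090 with array weights. The main fit did not take the numbers to pair the cultures. The deviations of same-numbered R216Q and wild-type arrays correlated at 0.031, 0.407 and 0.327 for numbers 1, 2 and 3. Wild-type replicate 2 correlated at -0.377 with R216Q replicate 3, and wild-type replicate 3 at -0.334 with R216Q replicate 2. Arrays numbered 2 and 3 thus shared deviations across the lines, and whether this marks a batch was not tested. Quantile and cyclic loess normalization moved the median of all genes by 0.0045 and 0.011. With 3 arrays per line, differences near 0.1 lie at the limit of what could be called. Dim genes are also limited by their signal over background, which was not measured here.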

Other observations

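The differences between R216Q and wild type were spread over the chromosomes. By the chromosome of the RefSeq gene table, the median log2 difference ran from -0.017 on chromosome 17 to 0.001 on chromosomes 3 and X. The share of genes called lower was 5.93% of 742 genes on chromosome X, against 12.9% called higher there, and 12.2% lower against 11.9% higher of 1144 genes on chromosome 5. These shares were not tested. The deepest fall of all was that of the predicted gene Gm5662, which read 6.41, 6.56 and 5.96 in R216Q and 9.33, 9.50 and 9.26 in wild type (difference -3.05 ± 0.18, adjusted p = 1.33e-08); it lies outside the naming rule, which passes over such symbols, and was chosen after its value was seen.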
